A study of Mus musculus with 28 samples.

Results

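The 10 genes described here mark regulatory T cells (Treg cells): Foxp3, Ikzf2 and Ikzf4, which encode transcription factors, Il2ra, Ctla4, Icos, Tnfrsf18, Tnfrsf4 and Gpr83, which encode receptors, and Lrrc32, which encodes a surface carrier of latent TGF-β. They were picked by name from 55487 gene IDs, not by their values, and each matched 1 ID. Their RNA levels were compared across the study's 7 groups of 4 libraries and set against Trac, the constant region of the T cell receptor α chain, in the same library. All libraries come from macrophages of wild-type mice, grown in culture from bone marrow precursors. The labels used here give no strain, sex or age.

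The study asked how engulfing dying T cells changes macrophages. Apoptotic Treg cells or conventional CD4 T cells (Tconv cells), killed with ATP/NAD+ and stained with fluorescent anti-CD4 antibody, were cultured with the macrophages for 48 h, and the macrophages were then sorted by what they had taken up. With 50 ng/mL IFN-γ there were non-phagocytic, Tconv-phagocytic and Treg-phagocytic groups, and with 50 ng/mL IL-10 the same 3 groups. The seventh group, M0, was kept for 48 h without a polarizing cytokine. Its labels give neither an uptake status nor a T cell type, so a comparison with M0 cannot tell the cytokine apart from sorting and uptake. The antibody carried the dye BV421 or Ax647. For the 8 Treg-phagocytic of the 16 phagocytic libraries, the title and the library name state different dyes, and names such as Ax647-1 follow the title. No label says whether libraries of a group came from separate cultures or animals, so the p-values measure only the spread between these libraries, which may be technical.

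Treg cells are CD4 T cells that restrain other immune cells. Their identity rests on the transcription factor FOXP3, and they carry high levels of the IL-2 receptor α chain (Il2ra), with which they capture IL-2, and of CTLA-4, which takes costimulatory ligands away from other T cells. Most of these genes are also switched on in activated Tconv cells, so none but Foxp3 comes close to naming the lineage by itself. They are not counted among the usual products of a macrophage, and a phagocyte that has engulfed a T cell can hold that cell's RNA until it is degraded.

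Levels are given as TPM, a gene's share of the transcripts in a library, corrected for transcript length, on a scale with the same sum in every library. The files give no read totals. From the steps between low TPM values, the IFN-γ libraries had 11.2% to 24.2% of the depth of the deepest library, the IL-10 libraries 49% to 92.1% and the M0 libraries 68.7% to 100%. A single read on a transcript with an effective length of 2000 nt was worth 0.133 to 0.288 TPM with IFN-γ, 0.0351 to 0.066 TPM with IL-10 and 0.0323 to 0.0471 TPM in M0. The 8 macrophage markers summed to between 16500 and 21300 TPM in every library. M0 replicate 1 stood apart from the other M0 libraries in T cell transcripts, with Trac at 13.99 TPM against 4.03, 5.61 and 4.77 TPM.

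RNA of the 10 genes was found in every group, and for 9 of them the cytokine, not the engulfed cell, separated the libraries most. All 9 genes other than Lrrc32 had their 3 highest group means in the 3 IFN-γ groups, including the macrophages sorted as having engulfed nothing. Within IL-10, the Treg-phagocytic group had the highest mean of 8 members, the exceptions being Ikzf2 and Lrrc32. Set against Trac in the same library, the group means of most members came closer together. Lrrc32 followed none of these patterns.

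**Figure D1:**
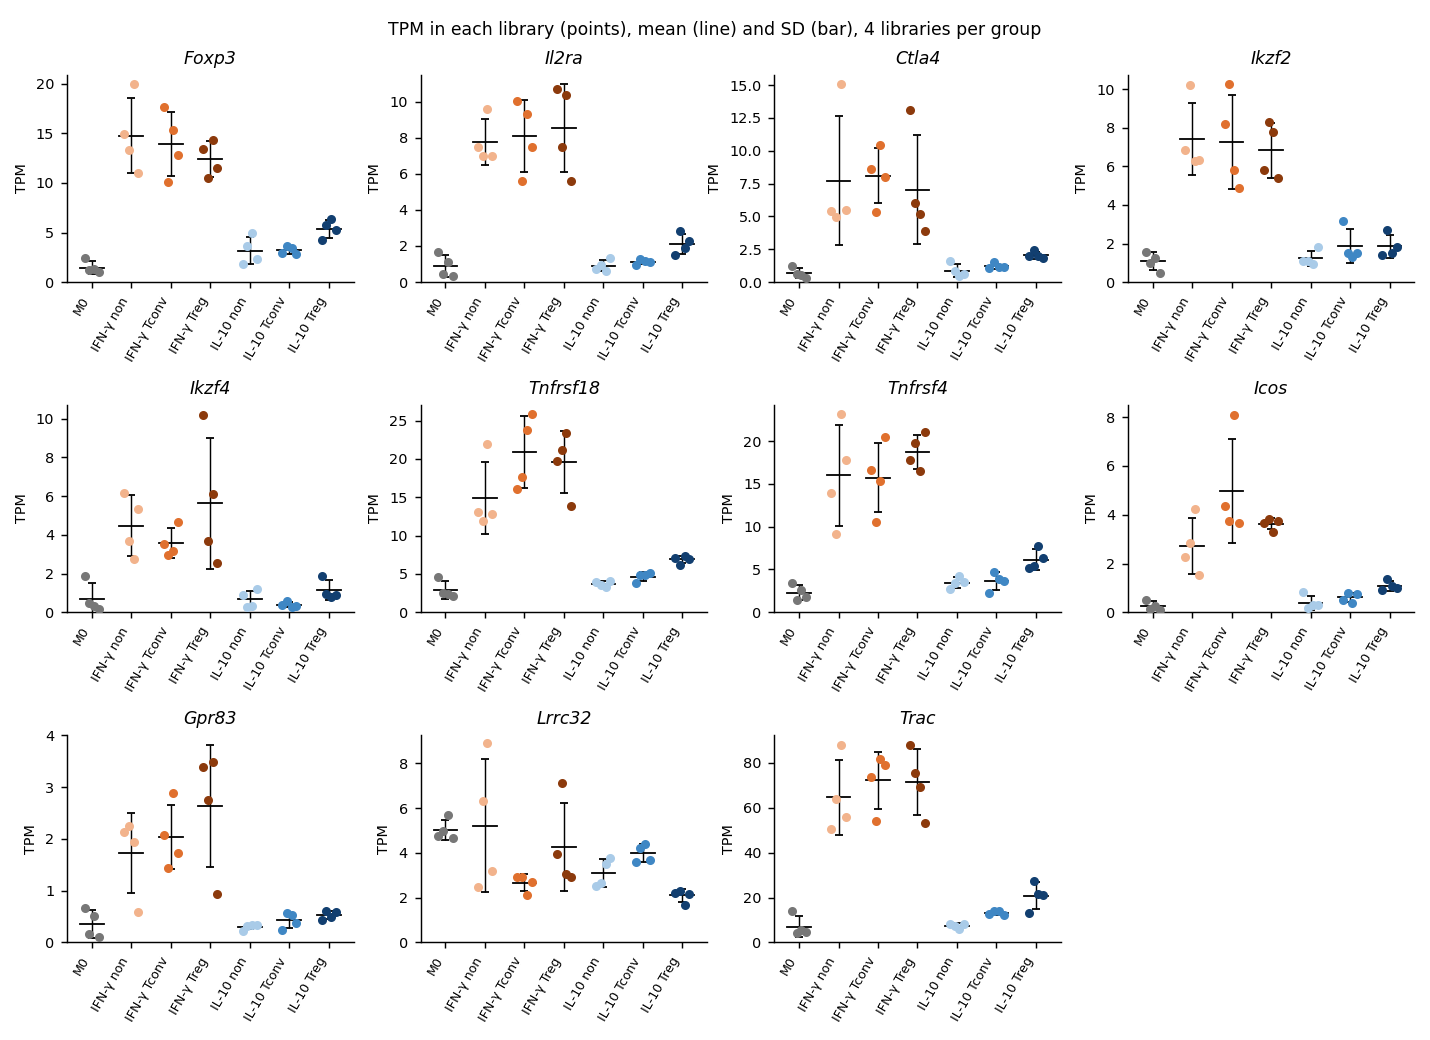
TPM (vertical axes, linear, from 0) of the 10 genes and of Trac in the 28 libraries. Points are libraries, horizontal lines are means and bars are SDs of 4 libraries. "Non", "Tconv" and "Treg" stand for non-phagocytic, Tconv-phagocytic and Treg-phagocytic macrophages. Foxp3 lies between 10.12 and 19.97 TPM in all 12 IFN-γ libraries and at or below 6.34 TPM in the other groups, while Lrrc32 does not separate the cytokines.

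Foxp3 (gene body chrX:7573644-7595245, plus strand, mm10) encodes the factor on which Treg identity depends. With IFN-γ it was at 14.89, 13.30, 19.97 and 10.95 TPM in the non-phagocytic libraries. The Tconv-phagocytic libraries of the same cytokine had 17.61, 10.12, 15.31 and 12.83 TPM, and the Treg-phagocytic ones 13.41, 10.45, 14.35 and 11.46 TPM. The ranges of these 3 groups overlapped, and the Treg-phagocytic mean was the lowest of the 3. With IL-10 the non-phagocytic libraries had 1.85, 3.61, 4.92 and 2.34 TPM. The Tconv-phagocytic libraries had 2.97, 3.66, 3.43 and 2.86 TPM, and the Treg-phagocytic libraries 4.21, 5.78, 6.34 and 5.27 TPM. Here every Treg-phagocytic library lay above every Tconv-phagocytic one, while one non-phagocytic library reached into the Treg range. M0 had 2.39, 1.17, 1.27 and 1.01 TPM, the lowest mean of the 7 groups (1.46 ± 0.629 TPM, SD, n = 4), and its range overlapped that of the IL-10 non-phagocytic group.

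By the ratio of mean TPM, IFN-γ non-phagocytic macrophages held 10.1-fold more Foxp3 RNA than M0 and 4.65-fold more than IL-10 non-phagocytic macrophages. On the log2(TPM + 1) scale, which understates changes of low genes, the difference between the cytokines was 2.22 (95% interval 1.64 to 2.79, adjusted p = 9.19e-05, limma). Between IL-10 Treg- and Tconv-phagocytic macrophages the ratio of means was 1.67, the log2 difference 0.58 (0.16 to 1.01) and the adjusted p 0.168, so this difference did not pass the test over all genes.

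Ikzf2 encodes Helios, an Ikaros family factor that many thymus-derived Treg cells express. Its RNA stood at 6.86, 10.21, 6.28 and 6.33 TPM in IFN-γ non-phagocytic, 8.18, 10.27, 5.79 and 4.88 TPM in Tconv-phagocytic and 5.81, 8.28, 7.79 and 5.42 TPM in Treg-phagocytic libraries. Values with IL-10 were 1.08, 1.07, 0.95 and 1.81 TPM without uptake, 3.18, 1.52, 1.31 and 1.53 TPM after Tconv uptake and 1.39, 2.69, 1.50 and 1.84 TPM after Treg uptake. In M0 they were 1.56, 1.00, 1.27 and 0.47 TPM. The cytokines were fully separated and the engulfed cell types were not: with IL-10 the ratio of the Treg- to the Tconv-phagocytic mean was 0.984.

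Ikzf4 encodes Eos, a related factor that works with FOXP3 in gene silencing. IFN-γ libraries had 6.18, 3.66, 2.73 and 5.35 TPM (non-phagocytic), 3.53, 2.95, 3.15 and 4.67 TPM (Tconv) and 10.21, 3.68, 6.11 and 2.55 TPM (Treg). IL-10 libraries had 0.91, 0.27, 0.31 and 1.19 TPM (non-phagocytic), 0.39, 0.60, 0.29 and 0.30 TPM (Tconv) and 1.90, 0.96, 0.77 and 0.89 TPM (Treg), and M0 had 1.86, 0.50, 0.30 and 0.18 TPM. After IL-10 and Treg uptake the mean was 2.86-fold that after Tconv uptake with no overlap, although several of these values amount to few reads, and the limma difference was 0.57 (0.15 to 0.99, adjusted p = 0.175).

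As 9 of the genes move with the T cell genes, their promoters are shown with a motif of T cell activation marked. NFAT, the calcium-activated factor downstream of the T cell receptor, binds a short core, GGAAA, which was searched on both strands (TTTCC on the printed one). The search, chosen after the expression values were seen, covered RefSeq windows of 300 bases (GRCm38.p6, 250 before to 50 after a gene start). The table held 7 windows for 6 of the 10 genes: Foxp3 (2 windows), Il2ra, Ctla4, Tnfrsf18, Tnfrsf4 and Gpr83. The core was in 6 of the 7 windows, the exception being Gpr83, and in 61.3% of all 32851 windows, so its presence does not set these genes apart. A match describes letters only and not a bound site. The 250 bases before the start are printed for Foxp3 (the downstream window), on which the Treg reading rests, for Tnfrsf18, which passed the test in the most IL-10 comparisons of uptake, and for Ctla4, as an example of the receptors. They run 5′ to 3′ on the plus strand with matches in capitals.
Foxp3, chrX:7580233-7580482: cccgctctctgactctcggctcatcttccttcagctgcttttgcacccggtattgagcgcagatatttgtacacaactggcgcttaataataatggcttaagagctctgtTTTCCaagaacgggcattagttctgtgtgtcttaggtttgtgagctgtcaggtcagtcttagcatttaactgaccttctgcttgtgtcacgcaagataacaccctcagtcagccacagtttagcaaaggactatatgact
Tnfrsf18, chr4:156026072-156026321: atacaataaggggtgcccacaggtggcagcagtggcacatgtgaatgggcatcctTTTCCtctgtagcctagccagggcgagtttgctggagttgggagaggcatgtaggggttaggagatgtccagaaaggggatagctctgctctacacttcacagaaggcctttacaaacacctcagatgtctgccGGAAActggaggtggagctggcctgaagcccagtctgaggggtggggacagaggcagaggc
Ctla4, chr1:60908775-60909024: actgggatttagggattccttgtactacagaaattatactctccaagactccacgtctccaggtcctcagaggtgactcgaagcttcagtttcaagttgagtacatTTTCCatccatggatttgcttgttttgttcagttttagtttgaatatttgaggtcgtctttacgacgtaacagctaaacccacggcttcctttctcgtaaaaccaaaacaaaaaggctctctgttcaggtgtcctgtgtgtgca

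Il2ra (CD25, chr2:11642807-11693193) encodes the α chain of the IL-2 receptor. IFN-γ non-phagocytic libraries had 7.46, 6.97, 9.61 and 6.98 TPM, Tconv-phagocytic ones 10.02, 5.58, 9.30 and 7.46 TPM and Treg-phagocytic ones 10.70, 7.51, 10.35 and 5.61 TPM. With IL-10 these were 0.75, 0.93, 0.61 and 1.34 TPM, then 0.94, 1.30, 1.18 and 1.12 TPM, then 1.52, 2.83, 1.89 and 2.25 TPM. M0 libraries had 1.66, 0.46, 1.09 and 0.32 TPM. Every IFN-γ library lay above every other library, and within IL-10 every Treg-phagocytic library lay above all 8 others. Il2ra had the largest limma difference of the 10 genes between the non-phagocytic groups, 2.42 (2.04 to 2.79, adjusted p = 3.40e-06), with a ratio of means of 8.55.

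Ctla4 (chr1:60887000-60915832) and Icos (chr1:60977927-61000320) encode related receptors with opposite roles, an inhibitory and a costimulatory one, and their gene bodies lie 62.1 kb apart. Ctla4 was at 5.40, 4.94, 15.07 and 5.50 TPM in IFN-γ non-phagocytic, 8.64, 5.33, 10.45 and 8.01 TPM in Tconv-phagocytic and 13.10, 6.03, 5.17 and 3.86 TPM in Treg-phagocytic libraries. One library in the first and one in the last of these groups was far above its fellows. With IL-10, Ctla4 was at 1.57, 0.84, 0.46 and 0.61 TPM without uptake, 1.06, 1.51, 1.14 and 1.13 TPM after Tconv and 1.97, 2.45, 1.99 and 1.82 TPM after Treg uptake, and M0 had 1.25, 0.65, 0.57 and 0.34 TPM. The IL-10 Treg-phagocytic libraries again lay above all the other IL-10 libraries.

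Icos was lower throughout. It was at 2.27, 2.84, 4.22 and 1.51 TPM in IFN-γ non-phagocytic, 4.37, 3.76, 8.11 and 3.65 TPM in Tconv-phagocytic and 3.67, 3.81, 3.29 and 3.74 TPM in Treg-phagocytic libraries. With IL-10 it was at 0.82, 0.19, 0.29 and 0.29 TPM, then 0.52, 0.81, 0.40 and 0.74 TPM, then 0.90, 1.36, 1.06 and 1.00 TPM, and M0 libraries had 0.52, 0.15, 0.27 and 0.11 TPM. The order with IL-10 was that of Ctla4, with the Treg-phagocytic libraries on top.

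Tnfrsf18 (GITR, chr4:156026164-156028895) and Tnfrsf4 (OX40, chr4:156013843-156016612) are neighbouring genes, 9.55 kb apart, for costimulatory receptors of the TNF receptor family that resting Treg cells already carry. Tnfrsf18 was at 13.09, 11.95, 21.92 and 12.78 TPM in IFN-γ non-phagocytic, 16.13, 17.66, 23.78 and 25.85 TPM in Tconv-phagocytic and 19.76, 21.22, 23.34 and 13.89 TPM in Treg-phagocytic libraries. With IL-10 it was at 3.94, 3.51, 3.29 and 4.05 TPM without uptake, 3.87, 4.81, 4.87 and 5.11 TPM after Tconv uptake and 7.11, 6.21, 7.28 and 6.96 TPM after Treg uptake. M0 had 4.60, 2.51, 2.38 and 2.09 TPM. Tnfrsf18 had the smallest standard error of the 10 genes in the IL-10 fit (0.0888), and its Treg-phagocytic libraries stood clear of all the other IL-10 libraries.

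Tnfrsf4 was at 13.95, 9.13, 23.15 and 17.74 TPM (IFN-γ, no uptake), 16.56, 10.58, 15.31 and 20.43 TPM (Tconv) and 17.79, 19.75, 16.54 and 21.00 TPM (Treg). The IL-10 values were 2.71, 3.43, 4.20 and 3.57 TPM, then 2.24, 4.76, 3.83 and 3.60 TPM, then 5.12, 5.42, 7.79 and 6.32 TPM, and the M0 values 3.38, 1.46, 2.61 and 1.75 TPM. With IL-10 the Treg-phagocytic libraries were again on top without overlap.

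Gpr83, a G protein-coupled receptor enriched in Treg cells, had the lowest mean of the 10 genes in each IFN-γ group. It was at 2.14, 2.24, 1.94 and 0.59 TPM without uptake, 2.08, 1.44, 2.88 and 1.73 TPM after Tconv and 3.39, 2.75, 3.48 and 0.93 TPM after Treg uptake. With IL-10 it was at 0.23, 0.31, 0.33 and 0.33 TPM, then 0.25, 0.56, 0.54 and 0.38 TPM, then 0.43, 0.60, 0.50 and 0.58 TPM, and in M0 at 0.66, 0.16, 0.51 and 0.10 TPM. In 1 IFN-γ non-phagocytic library it lay within the IL-10 range, so Gpr83 was the only member besides Lrrc32 whose IFN-γ and IL-10 groups overlapped.

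Lrrc32 (chr7:98489283-98502181) encodes GARP, which holds latent TGF-β on the surface of activated Treg cells and which is also made by platelets, endothelial cells and mesenchymal cells. Its values in M0 were 4.77, 4.96, 5.68 and 4.68 TPM, where every other member except Tnfrsf18 stayed below 4 TPM. With IFN-γ it was at 2.48, 6.32, 8.90 and 3.17 TPM without uptake, 2.90, 2.94, 2.13 and 2.72 TPM after Tconv and 3.96, 7.11, 3.06 and 2.93 TPM after Treg uptake. The IL-10 libraries had 2.51, 2.67, 3.48 and 3.76 TPM without uptake, 3.60, 4.23, 4.41 and 3.69 TPM after Tconv uptake and 2.23, 2.30, 1.69 and 2.18 TPM after Treg uptake. All 4 IL-10 Treg-phagocytic libraries lay below all 8 other IL-10 libraries.

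The tests were run with limma on log2(TPM + 1) over 13631 genes, and a gene was called at an adjusted p under 0.05. Between the non-phagocytic groups, 9 of the 10 genes were higher with IFN-γ than with IL-10, by 1.15 (Gpr83) to 2.42 (Il2ra) on the log2 scale. Of all genes tested, 50.7% were called in this comparison and 26.9% were called higher. Ikzf4, Icos and Gpr83 would not have passed the filter (at least 1 TPM in at least 4 libraries) without the IFN-γ libraries. Calls of these genes as higher with IFN-γ are therefore no separate support. With no filter on low values, 9 of the 10 genes were called as well. The median of the 10 genes was 2.07 against 0.01 for all genes, and that of 25 pan T cell genes was 2.59, with 25 of 25 called higher. Trac itself was higher by 3.24 (2.84 to 3.63, adjusted p = 7.00e-07), more than any of the 10 on this scale, which understates low genes. By the ratio of means Trac was 8.63-fold higher, Ctla4 8.88-fold, Il2ra 8.55-fold and the other members 6.82-fold or less. Lrrc32 differed by 0.74 (0.01 to 1.47, adjusted p = 0.0848), and without IFN-γ non-phagocytic replicate 1 by 0.98 (adjusted p = 0.0239). Because the compared TPM are shares, fewer T cells and less RNA per T cell cannot be told apart in these bulk libraries, nor can RNA inside a macrophage be told from RNA of T cells sorted along with it.

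Against M0, the IFN-γ non-phagocytic macrophages had 9 of the 10 genes higher, by 1.11 (Gpr83) to 2.92 (Foxp3), where 52.7% of all genes were called and 27.7% were called higher. Lrrc32 was again the exception, at 0.18 (-0.54 to 0.89, adjusted p = 0.665). The limit on Ikzf4, Icos and Gpr83, which passed the filter only through the IFN-γ libraries, holds here too. IL-10 non-phagocytic macrophages had 1 member called against M0, where 26.6% of all genes were: Lrrc32 fell by 0.56 (SE 0.115, adjusted p = 0.00705). With all 28 libraries in 1 model, Lrrc32 lost this call (adjusted p = 0.156) and Foxp3 gained one (0.0206). Foxp3 was 0.70 above M0 (0.14 to 1.26, adjusted p = 0.0688), while Trac was 0.18 above (-0.53 to 0.89). Leaving out M0 replicate 1, the library richest in T cell RNA, brought the count of called members from 1 to 4, with Foxp3 at 0.86 (adjusted p = 0.0374), Tnfrsf4 at 0.58 (0.0372) and Tnfrsf18 at 0.47 (0.00834) joining Lrrc32. Without IL-10 non-phagocytic replicate 1, Foxp3 was also called, at 0.86 (adjusted p = 0.0355). These comparisons share the M0 libraries, and they share a non-phagocytic group each with the one before.

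**Figure D2:**
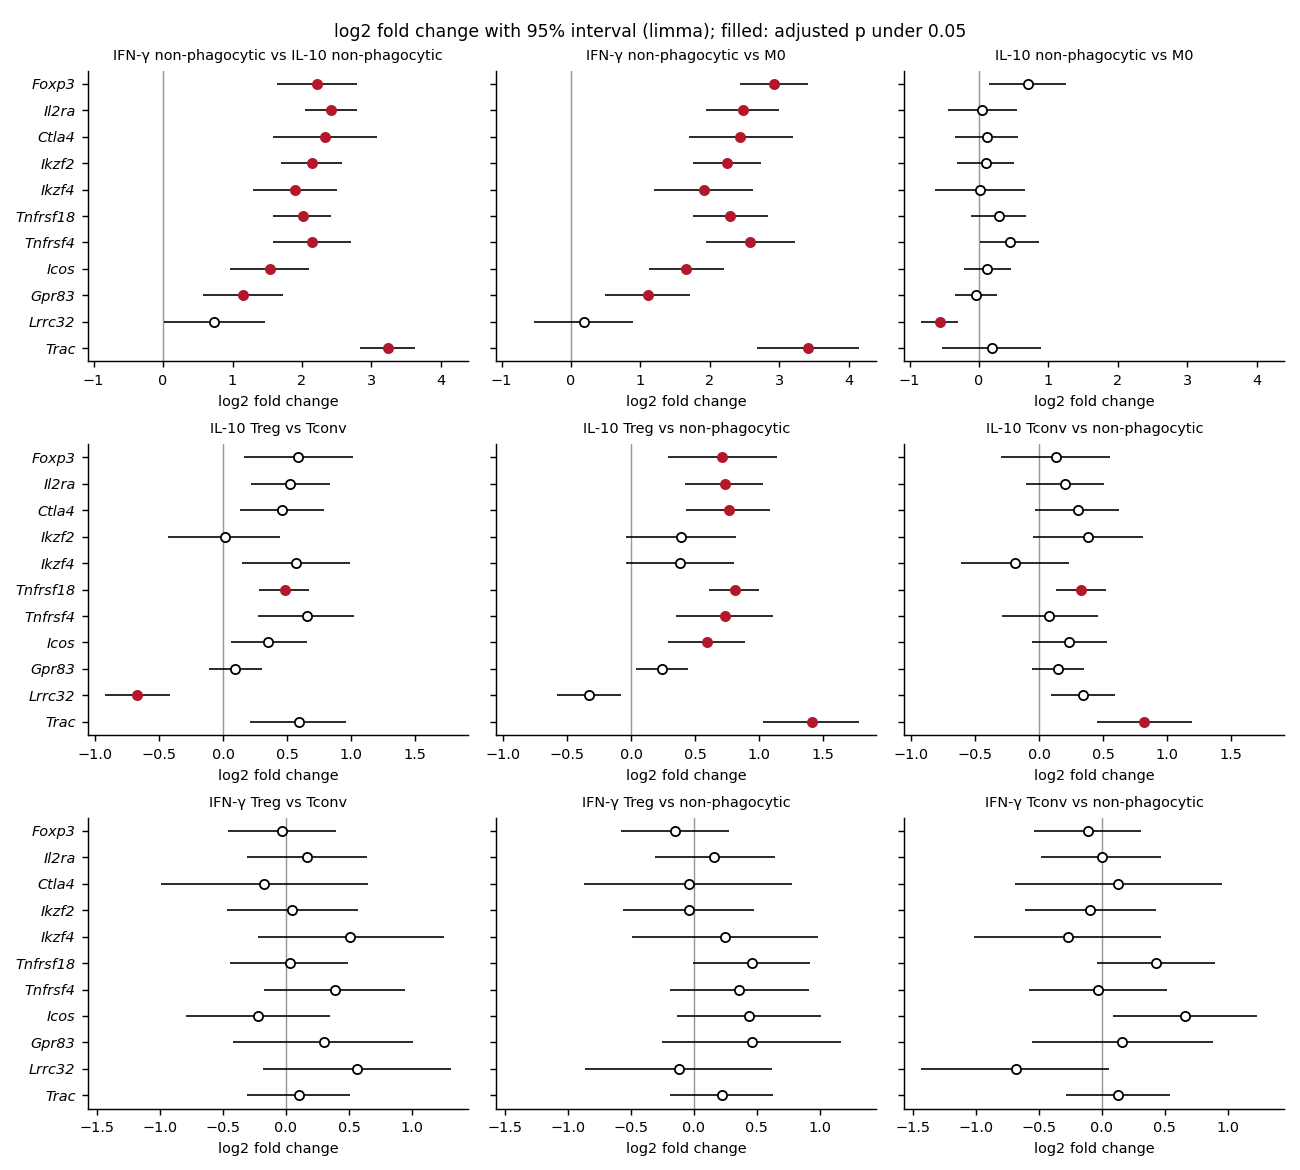
log2 fold changes (horizontal axes, log2(TPM + 1) scale) of the 10 genes and Trac in 9 comparisons, with 95% intervals from limma. Filled points passed an adjusted p of 0.05. In the upper row 9 genes lie far to the right in both IFN-γ comparisons and Lrrc32 does not; in the lower row no gene passed.

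Within IL-10, uptake of Treg cells went with more RNA of most members. Compared with non-phagocytic macrophages, 6 of the 10 genes were higher after Treg uptake and 0 lower, where 13.8% of all genes were called and 8.3% were called higher. Tnfrsf18 rose by 0.81 (0.61 to 1.00, adjusted p = 0.00012), Ctla4 by 0.76 (adjusted p = 0.00564), Il2ra by 0.73 (0.00471), Tnfrsf4 by 0.73 (0.0149), Foxp3 by 0.71 (0.0304) and Icos by 0.59 (0.013). Trac rose by 1.41 (adjusted p = 0.00023), and 24 of 25 pan T cell genes rose with it, with a median of 0.94 against 0.65 for the 10 members and 0.00 for all genes. By the ratio of means Trac rose 2.8-fold, Icos 2.72-fold, Ctla4 2.36-fold and Il2ra 2.34-fold. The other members lay between 1.51 (Ikzf2) and 1.86 (Tnfrsf18), apart from Lrrc32 (0.676). Foxp3's call was lost without IL-10 non-phagocytic replicate 1 (adjusted p = 0.0744) or 4 (0.0854) and without Treg-phagocytic Ax647-2 (0.0704), BV421-1 (0.0814) or BV421-2 (0.0616), within a range of 0.00579 to 0.0892 over 17 alternatives.

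Uptake of Tconv cells was tested in the same way against the same non-phagocytic libraries. Tnfrsf18 was the 1 member called, at 0.33 (0.13 to 0.52, adjusted p = 0.0496), where 6.43% of all genes were called. It did not pass under 14 of 17 alternatives (adjusted p between 0.0209 and 0.821), among them each omission of 1 library except Tconv-phagocytic BV421-1. Foxp3 differed by 0.13 (-0.30 to 0.55, adjusted p = 0.799), although Trac rose by 0.82 (adjusted p = 0.014) and 14 of 25 pan T cell genes rose, with a median of 0.54.

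The direct comparison of the 2 engulfed cell types asks whether these genes follow the identity of the prey. With IL-10, all 4 Treg-phagocytic libraries lay above all 4 Tconv-phagocytic ones for 7 of the 10 genes (Foxp3, Il2ra, Ctla4, Ikzf4, Tnfrsf18, Tnfrsf4 and Icos), while 3.89% of all genes showed this order. As the order holds for every pair of libraries, it holds under either reading of the dyes. By the test, 2 of the 10 genes were called, where 2.13% of all genes were. Tnfrsf18 rose by 0.48 (0.28 to 0.67, adjusted p = 0.0143). Lrrc32 fell by 0.67 (SE 0.115, adjusted p = 0.00844). The other 6 genes with separate groups differed by 0.35 (Icos) to 0.65 (Tnfrsf4), with adjusted p between 0.0867 and 0.241. Ikzf2 and Gpr83 differed by 0.01 (-0.43 to 0.44) and 0.09 (-0.11 to 0.30). Trac differed by 0.59 (0.21 to 0.96, adjusted p = 0.115), as much as Foxp3, and 3 of 25 pan T cell genes rose, Cd3g by 0.73, Cd5 by 0.58 and Trbc2 by 0.57. With the dye and number of the titles as a replicate block both calls were lost (adjusted p = 0.203 and 0.0749), as they were with all 28 libraries in 1 model (0.617 and 0.496). With 2 libraries a side of 1 dye, neither call remained: Tnfrsf18 differed by 0.60 (BV421, adjusted p = 0.126) and 0.35 (Ax647, 0.422), and Lrrc32 by -0.73 (0.171) and -0.61 (0.331).

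With IFN-γ no member was called in any comparison of uptake. Between Treg- and Tconv-phagocytic macrophages 0 of the 10 genes passed, where 14.7% of all genes did. Foxp3 differed by -0.03 (-0.46 to 0.40, adjusted p = 0.946), and for 0 of the 10 genes did all 4 libraries of one group lie above the other 4. Against non-phagocytic macrophages, 0 of 10 passed after Treg uptake, where 10.7% of all genes did, and 0 of 10 after Tconv uptake, where 0% did (777 of 13631 genes had an unadjusted limma p under 0.05). Of these 30 estimates the largest was that of Lrrc32 after Tconv uptake, -0.68 (-1.43 to 0.06, adjusted p = 0.87). In simulated data with the spread of the IFN-γ libraries, a log2 change of 1 was recovered in 109 of 200 genes, against 177 of 200 with the spread of the IL-10 libraries. No smaller change was simulated, so how often differences of the size seen with IL-10 would be recovered is not known.

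Whether the effect of the engulfed cell type depended on the cytokine was tested as a difference of differences over the 16 phagocytic libraries. It was called for 1 of the 10 genes, where 13.4% of all genes were called: Lrrc32, whose Treg against Tconv difference was 0.56 with IFN-γ and -0.67 with IL-10, a gap of 1.24 (0.63 to 1.84, adjusted p = 0.00813). Foxp3 had a gap of -0.62 (-1.09 to -0.14, adjusted p = 0.0859). Without IFN-γ Tconv-phagocytic BV421-2 Foxp3 passed (-0.75, adjusted p = 0.0274), and without IFN-γ Treg-phagocytic Ax647-1 Ctla4 did (-0.94, 0.0265), whose gap over all libraries was -0.63 (-1.40 to 0.14, adjusted p = 0.29). For the other 7 genes the gaps ranged from -0.57 (Icos) to 0.20 (Gpr83) and none passed.

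Dividing by Trac asks whether the T cell RNA in a library was richer in Treg transcripts, whatever its amount. For Foxp3 the ratio was 0.194 ± 0.0324 TPM per TPM of Trac after Tconv uptake with IFN-γ and 0.179 ± 0.0392 after Treg uptake (SD, n = 4 each). With IL-10 it was 0.245 ± 0.0132 after Tconv and 0.267 ± 0.0475 after Treg uptake. The M0 libraries had 0.225 ± 0.0496 and the IFN-γ non-phagocytic ones 0.232 ± 0.0443, so 6 of the 7 groups had means between 0.179 and 0.267. IL-10 non-phagocytic macrophages were the exception, with a mean of 0.46 and libraries from 0.219 to 0.851. On the log2(TPM + 1) scale, Foxp3 per Trac differed between Treg and Tconv uptake by -0.12 with IFN-γ (exact permutation test, two-sided, p = 0.571, adjusted over 2 tests 1) and by 0.0038 with IL-10 (p = 1, adjusted 1, same exact test), where 4 against 4 libraries can give no p below 0.0286. The 95% limma interval of the IL-10 difference, -0.50 to 0.51, leaves room for a change of at least about 0.5 in either direction. Every gene in that fit shares the Trac value of its library, so the interval is likely too narrow.

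**Figure D3:**
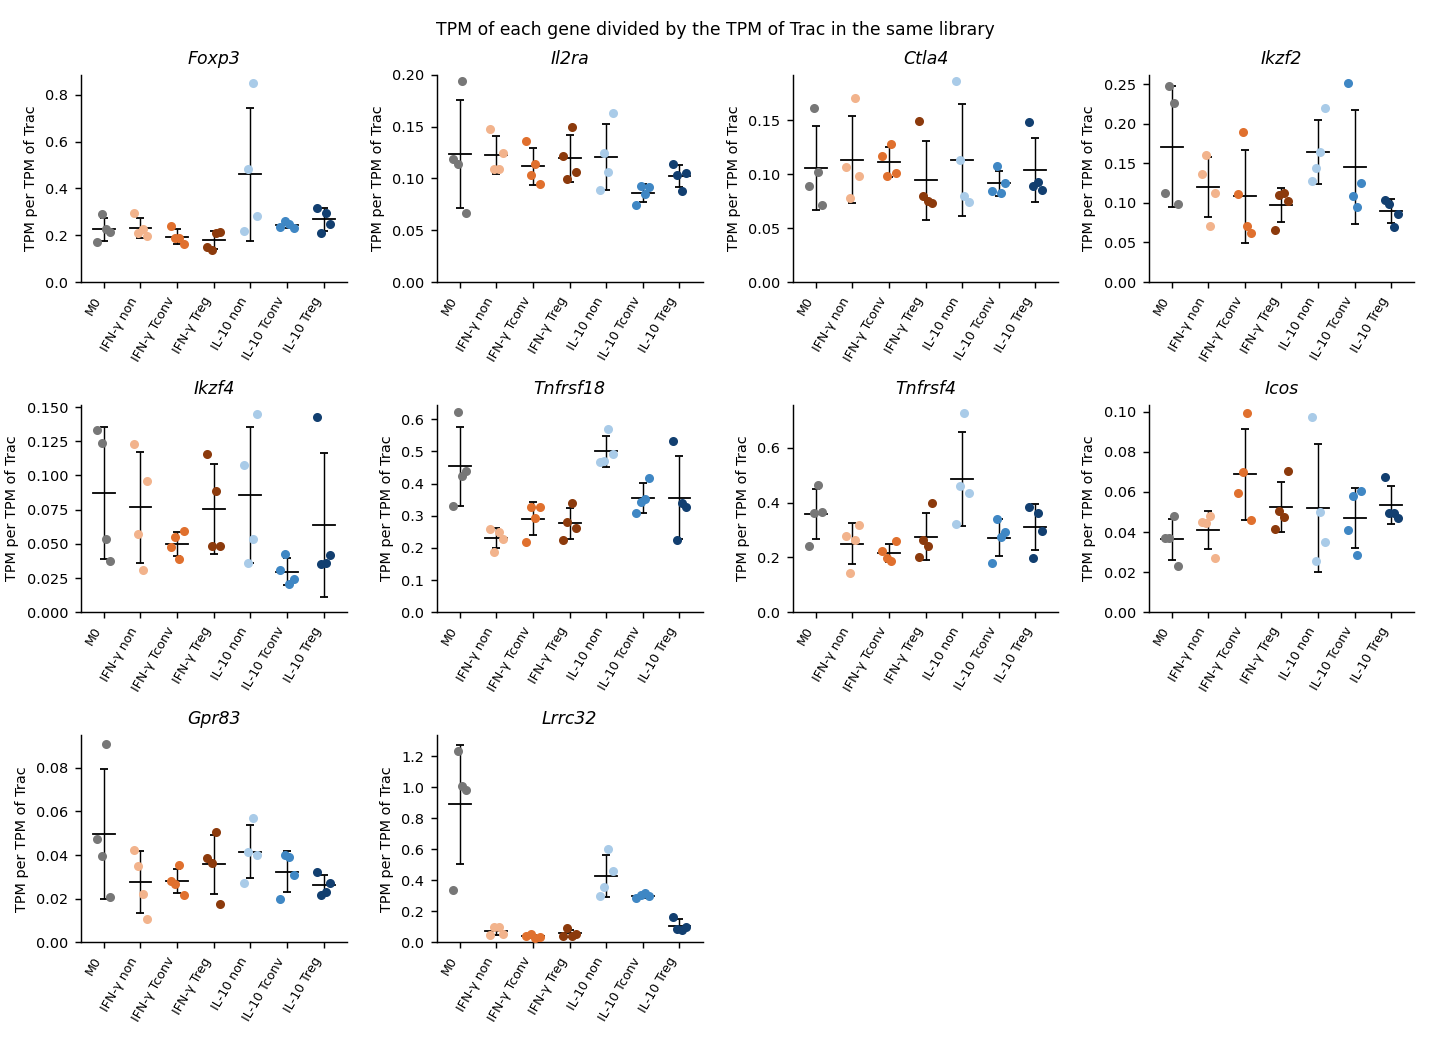
TPM of each gene divided by the TPM of Trac in the same library (vertical axes, linear, from 0), by group. Points are libraries, lines means and bars SDs of 4 libraries. Foxp3 group means lie between 0.179 and 0.267 except for IL-10 non-phagocytic macrophages (0.46), whereas Lrrc32 spans 0.0386 to 0.891.

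Among the receptors, Il2ra had group means of 0.086 to 0.124 and Ctla4 of 0.0916 to 0.114, although their TPM differed 8.55-fold and 8.88-fold between the non-phagocytic groups. Tnfrsf18 and Tnfrsf4 were higher per Trac in M0 (0.454 and 0.359) and in IL-10 non-phagocytic macrophages (0.5 and 0.486) than in the IFN-γ groups, where the means were 0.231 to 0.291 and 0.217 to 0.275. For Ikzf2 the means ran from 0.0896 to 0.171, for Ikzf4 from 0.0298 to 0.0871, for Icos from 0.0364 to 0.0687 and for Gpr83 from 0.0262 to 0.0497. Where Trac is below 10 TPM, as in M0 and IL-10 non-phagocytic libraries, these ratios rest on small numbers.

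In the limma fit of log2(TPM + 1) minus that of Trac, Treg against Tconv uptake called 0 of the 10 genes with IFN-γ, where 1.83% of all genes were called. With IL-10, 2 of the 10 were called, both lower per Trac, where 74.5% of all genes were called, nearly all lower. All genes share the Trac value of each library, so the p-values of this fit are likely too small for the number of libraries. The median over all genes was -0.59, which is Trac's own difference with its sign turned, and the median of the 10 was -0.11. Lrrc32 fell by 1.27 per Trac (SE 0.262, adjusted p = 0.000107) and Ikzf2 fell by 0.58 (SE 0.275, adjusted p = 0.0477). Ikzf2 did not pass under 14 of 18 alternatives (adjusted p 0.00741 to 0.67), and without Tconv-phagocytic BV421-1 its value was -0.37 (adjusted p = 0.257). Foxp3 (0.00), Ikzf4 (0.00), Il2ra (-0.05), Tnfrsf4 (0.07), Tnfrsf18 (-0.11) and Ctla4 (-0.12) lay close to 0, Icos was at -0.22, and Gpr83, at -0.49 (adjusted p = 0.113), lay near the median gene. The added 1 TPM shrinks a rise of a low gene more than that of Trac. Without it, mean ratios after IL-10 Treg against Tconv uptake were 0.0638 against 0.0298 for Ikzf4 and 0.103 against 0.086 for Il2ra. They were 0.104 against 0.0916 for Ctla4 and 0.0533 against 0.0471 for Icos, with overlapping ranges in each. By mean ratio Foxp3 and Tnfrsf4 were also higher, Tnfrsf18 was level, and Ikzf2, Gpr83 and Lrrc32 were lower. These means lean on Treg-phagocytic Ax647-1, the library of its group with the least Trac (13.33 TPM). Its ratio was 0.143 for Ikzf4 and 0.148 for Ctla4. The other Treg-phagocytic libraries had 0.035 to 0.0417 for Ikzf4 and 0.0853 to 0.0928 for Ctla4. Ax647-1 also had the highest ratio of its group for Il2ra, Icos, Foxp3 and Tnfrsf4.

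**Figure D4:**
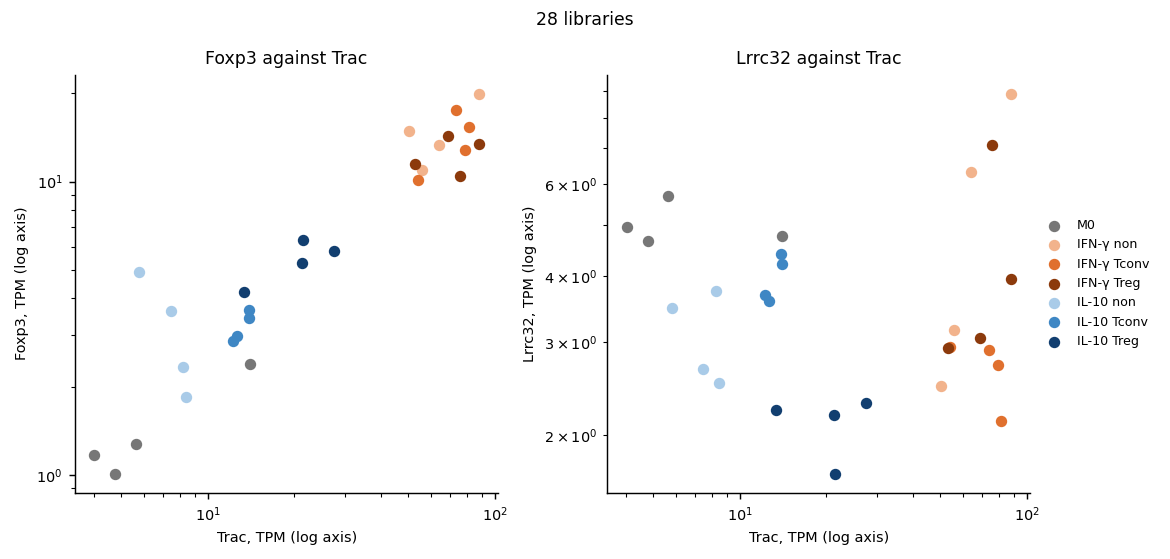
TPM of Foxp3 (left) and Lrrc32 (right) against TPM of Trac (all axes logarithmic) in the 28 libraries, coloured by group. "Non", "Tconv" and "Treg" stand for non-phagocytic, Tconv-phagocytic and Treg-phagocytic macrophages. Foxp3 and Trac are both highest in the 12 IFN-γ libraries, while Lrrc32 is as high in M0 (4.68 to 5.68 TPM) as in IFN-γ libraries that hold far more Trac.

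Lrrc32 did not follow the T cell genes, and among the IL-10 groups stromal genes differed in the same direction as it did, but not with IFN-γ. Per Trac it was at 0.891 ± 0.383 in M0, 0.429 ± 0.133 in IL-10 non-phagocytic, 0.302 ± 0.0133 in Tconv-phagocytic and 0.108 ± 0.0408 in Treg-phagocytic macrophages. In the IFN-γ groups its means were 0.0386 to 0.0765. Of 6 fibroblast and stromal genes, 5 were tested, and all 5 fell in IL-10 Treg- against Tconv-phagocytic macrophages, with a median of -2.16. There 2.13% of all genes were called, and 188 of 13631 were called lower. Acta2, smooth muscle actin, fell by 2.32, and Col1a1, a collagen I chain, fell by 2.29. The summed TPM of the 6 genes was 22.9 to 26.5 after Treg uptake, 126 to 131 after Tconv uptake, 66.8 to 73.2 without uptake and 93.2 to 110 in M0, with none of the 6 at 0 in a whole group. Lrrc32 had the same order of means across these 4 groups except that M0 exceeded Tconv uptake. In the IFN-γ groups the stromal sum was 1.32 to 5.84 TPM while Lrrc32 was at 2.13 to 8.90 TPM. In IFN-γ against IL-10 non-phagocytic macrophages 4 of the 5 stromal genes were lower (median -2.98), with Lrrc32 at 0.74. There 50.7% of all genes were called, and 3238 of 13631 were called lower. Against M0, 4 of the 5 stromal genes were lower as well (median -3.49), with Lrrc32 at 0.18. In that comparison 52.7% of all genes were called, and 3405 of 13631 were called lower. Tgfb3, a TGF-β of the kind GARP carries, fell by 1.42 in IL-10 Treg- against Tconv-phagocytic macrophages, from 3.71 ± 0.165 to 0.72 ± 0.156 TPM (SD, n = 4). It was the only 1 called of 12 tested ligands and partners of the member receptors, Tgfb1 among them (median of the 12, 0.01). What part stromal RNA has in the Lrrc32 difference was not tested.

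T cell RNA as a whole moved with the other members. The 25 pan T cell genes summed to 692 to 1320 TPM in the IFN-γ libraries, 257 to 304 TPM in IL-10 Treg-phagocytic, 169 to 231 TPM in IL-10 Tconv-phagocytic, 122 to 142 TPM in IL-10 non-phagocytic and 75.7 to 204 TPM in M0 libraries, and none of the 25 was at 0 in a whole group. Markers of CD8 T cells and of NK and innate lymphoid cells were near absent: none of their 11 genes passed the filter, and their sums reached at most 2.77 and 2.9 TPM. With IL-10, the 7 B cell genes summed to 29 to 30 TPM after Treg uptake and 14.3 to 16.9 TPM after Tconv uptake. Between these groups 2.13% of all genes were called. Of the 6 tested B cell genes 1 was called, Ighm, the IgM heavy chain, which rose by 0.98. What part B cell RNA or RNA of the other cell types has in the members' differences was not tested.

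Other genes known to be enriched in Treg cells were examined as a list of 22, of which 18 were tested. After Treg uptake with IL-10, 11 of the 18 rose against non-phagocytic macrophages and 0 fell, where 8.3% of all genes were called higher (median 0.31 against 0.00 for all genes). The largest were Izumo1r, the folate receptor 4 of Treg cells, at 1.20, the inhibitory receptors Pdcd1 and Tigit at 1.07 and 0.96, and the IL-2 receptor β chain Il2rb at 0.95. Against Tconv uptake, 2 of the 18 rose, Pdcd1 by 0.86 and Izumo1r by 0.61 (median 0.16). There 2.13% of all genes were called, and 102 of 13631 were called higher. After Tconv uptake 4 of the 18 rose against non-phagocytic macrophages and 0 fell (median 0.20). In that comparison 6.43% of all genes were called, and 628 of 13631 were called higher. Between the non-phagocytic groups 14 were higher with IFN-γ and 4 lower (median 1.23), where 50.7% of all genes were called and 26.9% called higher. The largest were Izumo1r at 2.96, Il2rb at 2.78, Tigit at 2.33 and Pdcd1 at 2.14. The 4 lower ones, named after their values were seen, were Nrp1, Fgl2, Tgfb1 and Tnfrsf1b, which macrophages also make. With IFN-γ, 1 of the 18 was higher after Treg than after Tconv uptake, Tnfrsf1b by 0.30. There 14.7% of all genes were called, and 825 of 13631 were called higher.

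Upstream regulators and partners of FOXP3 formed a list of 25, of which 24 were tested. In IL-10 Treg- against Tconv-phagocytic macrophages 1 of the 24 rose, Ets1 by 0.51, and 0 fell (median -0.01). There 2.13% of all genes were called, and 102 of 13631 were called higher. Against non-phagocytic macrophages 4 rose after Treg uptake: Nr4a1, an immediate target of T cell receptor signals, by 0.76, Ets1 by 0.63, the common γ chain Il2rg by 0.38 and Tgfbr2 by 0.14. The median was 0.03, where 8.3% of all genes were called higher. After Tconv uptake 4 of the 24 rose as well (median 0.04), where 6.43% of all genes were called and 628 of 13631 were called higher. Between the non-phagocytic groups 7 were higher with IFN-γ, among them Nr4a1 (2.07), Ets1 (2.05), Satb1 (1.47) and Gata3 (1.29), and 7 were lower (median -0.01). With 50.7% of all genes called there, these counts are near the background.

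Ligands and partners of the member receptors, 16 genes of which 12 were tested, include products of the macrophage itself. Tnfsf18, the GITR ligand, was at 0 in all 4 libraries of 5 of the 7 groups. Between the non-phagocytic groups 8 of 12 were higher with IFN-γ and 2 lower (median 0.82; 26.9% of all genes called higher), led by Il2rb (2.78), the TNF receptor adaptor Traf5 (1.13), the CTLA-4 ligand Cd80 (1.03) and Cd28 (0.96). After Treg uptake with IL-10, Il2rb (0.95), Cd28 (0.43) and Il2rg (0.38) rose against non-phagocytic macrophages and Tgfb3 fell by 0.74 (median 0.15). There 13.8% of all genes were called. After Tconv uptake 4 of the 12 rose and 0 fell (median 0.17). There 6.43% of all genes were called, and 628 of 13631 were called higher. Cd28, Il2rb, Il2rg and Tgfb1 each stand in more than 1 of these lists.

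Over the 12 IL-10 libraries, the genes whose log2 levels were most like Foxp3's were Isg15 (Pearson r = 0.93), Npc1 (0.91), Magoh (0.91), Rnf2 (0.91) and Fnip1 (0.89), out of 13630 genes compared. Tnfrsf4 was 16th of the 13630 with 0.85, followed by Gpr83 with 0.70, Il2ra with 0.65, and Tnfrsf18 and Trac with 0.63 each. Ctla4 and Icos had 0.48, Ikzf2 0.18, Ikzf4 0.12 and Lrrc32 -0.47. The points are 12 libraries that share 3 groups and a common scaling, so these values describe likeness within this set only.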

How the data were processed

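RNA was sequenced from 28 macrophage libraries in 7 groups of 4. Poly(A) RNA, isolated with RNAiso PLUS, went into strand-specific NEBNext Ultra II Directional libraries, per the labels' protocols. The submitters' processing notes name STAR, RSEM and mm10 without versions or roles, and the annotation is not given in the sources used here. The authors deposited 1 TPM value per Ensembl gene ID, per the file headers. Of 55487 IDs, 55141 were matched to a symbol. Of 378 pairs of libraries, 0 had identical values. TPM are shares, so a strong rise elsewhere lowers every other gene. Relative depth was read from the steps between low TPM values: 87.6% to 91.8% of them lay within 0.15 reads of a whole number.

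The members and all gene lists were chosen with earlier results of these data known. All 10 members passed the filter of at least 1 TPM in at least 4 libraries, which kept 13631 genes. Ikzf4, Icos and Gpr83 would not have passed it without the IFN-γ libraries. Values were divided by an unweighted trimmed mean scaling factor (30% of ratios and 5% of levels trimmed), and log2(TPM + 1) was tested with limma 3.58.1 (R 4.3.3; lmFit, eBayes with trend). Each comparison of uptake was fitted on the 12 libraries of its cytokine, each comparison of cytokines or with M0 on its 8 libraries and the difference of differences on the 16 phagocytic libraries, because the IFN-γ libraries varied more. Treg- and Tconv-phagocytic groups were also compared per Trac, as log2(TPM + 1) minus that of Trac, with an exact permutation test (scipy 1.17.1) for Foxp3. P-values are two-sided and adjusted by Benjamini-Hochberg over all genes. No library was left out of the main results.

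The fit was tested on simulated data with 200 of 13631 genes changed. For a log2 change of 1, 109 were recovered for IFN-γ with 4 unchanged genes called, and 177 for IL-10 with 7. For a log2 change of 2, the numbers were 175 with 9 and 198 with 7. Alternatives were other scalings, pseudocounts and filters, other sets of libraries, replicate blocks and the omission of each library. The text names the 10 members and Trac, up to 4 called genes of a list per comparison by the size of their change, and the 5 genes most like Foxp3. Promoters come from the RefSeq table of GRCm38.p6, gene positions from GENCODE vM21.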

Additional observations from a re-analysis of the deposited data

Results flagged for a closer look

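In each group of 4 libraries, a value was picked out when its gap to the nearest other library divided by the group's range exceeded Dixon's 95% critical value for 4 samples. Of 77 groups tested (10 genes and Trac in 7 groups), 10 had such a value, where chance gives about 1 in 20. With IFN-γ and no uptake, Ctla4 (15.07 TPM) and Tnfrsf18 (21.92 TPM) stood high in replicate 3 and Ikzf2 (10.21 TPM) in replicate 2. In IFN-γ Tconv-phagocytic Ax647-1, Icos stood high at 8.11 TPM. With IL-10 and no uptake, Ikzf2 stood high in replicate 4 (1.81 TPM) and Icos in replicate 1 (0.82 TPM). In IL-10 Tconv-phagocytic BV421-1 Ikzf2 was at 3.18 TPM, and in IL-10 Treg-phagocytic Ax647-1 Ikzf4 was at 1.90 TPM. In M0 replicate 1 both Trac (13.99 TPM) and Tnfrsf18 (4.60 TPM) stood high. All 10 values were the highest of their group.

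The Treg against Tconv difference of Lrrc32 was picked out because it differed between the cytokines: it was 1.24 larger with IFN-γ than with IL-10 on the log2 scale (SE 0.284, adjusted p = 0.00813, limma). With IFN-γ it was 0.56 (adjusted p = 0.318), where 2 Treg-phagocytic libraries exceeded all Tconv-phagocytic ones by over 1 TPM, and with IL-10 it was -0.67 (adjusted p = 0.00844).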

How the results depend on the processing

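Of 2176 values of single members under alternatives, 2107 kept their direction and side of the threshold or were uncalled both times (112 of these changed sign while uncalled), 51 lost a call, 18 gained one and 0 called values changed sign. Of 31 member results called, 20 were called under every alternative run, among them all 18 differences of IFN-γ non-phagocytic macrophages from IL-10 and from M0. Without scaling, the median of all genes moved from 0.014 to -0.257 between the non-phagocytic groups and from 0.013 to -0.242 against M0.

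The count for IL-10 Treg against Tconv uptake went from 2 to 0 with all 28 libraries in 1 model, with a replicate block by the titles' dye and number, and with only the BV421 or only the Ax647 libraries (2 to 3 without 1 library), and to 3 with the replicate block by file number, which added Tnfrsf4 (adjusted p = 0.0438). Over all genes the calls went from 290 to 107 with all 28 libraries and 83 with the block by titles. They went to 87 with only BV421, 54 with only Ax647 and 216 with the block by file number. For IL-10 Treg uptake against none the count of members went from 6 to 3 with all 28 libraries, to 5 with no filter, the filter at 5 TPM or only the groups compared and to 7 without scaling, which added Lrrc32 (0.0342) (5 to 6 without 1 library). For IL-10 Tconv uptake against none it went from 1 to 0 with median-of-ratios scaling, no scaling, a pseudocount of 5 TPM, no filter, only the groups compared, all 28 libraries and the replicate block by file number (0 to 1 without 1 library). For IL-10 non-phagocytic against M0 it was 1 to 4 without 1 library. The difference of differences went from 1 to 2 without scaling and with the replicate block by file number, and to 0 with only the BV421 or only the Ax647 libraries (1 to 2 without 1 library). Per Trac with IL-10 the count went from 2 to 1 with a pseudocount of 0.1 TPM, no filter, a filter of 5 TPM, only the groups compared and either replicate block, to 4 with a pseudocount of 5 TPM, and to 0 with all 28 libraries or only the Ax647 libraries (1 to 3 without 1 library). The per-Trac calls over all genes went from 10160 to 12516 with a pseudocount of 5 TPM. They went to 70 with all 28 libraries and 91 with only the Ax647 libraries. The cause of these changes was not tested. In the single-dye fits, the dye and the smaller number of libraries cannot be told apart.

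Omission of 1 library also brought single calls: Il2ra in IL-10 Treg against Tconv uptake without Treg-phagocytic Ax647-1 (0.62, adjusted p = 0.0498, limma), Gpr83 per Trac without the same library (-0.65, 0.0107) and Lrrc32 in IL-10 Treg uptake against none without non-phagocytic replicate 1 (-0.40, 0.0496). Same-numbered libraries did not deviate together: correlations of their deviations lay between -0.067 and 0.085, so the replicate block is only a check here. A block by file number could not be fitted against M0, whose numbers do not match. With IFN-γ, 1 read was worth up to 0.288 TPM on 2000 nt, so values of Icos and Gpr83 below 1 TPM rest on few reads.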

Other observations

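The remaining lists were compared in IL-10 Treg- against Tconv-phagocytic macrophages, where 2.13% of all genes were called. Of 11 tested genes biased to naive and conventional CD4 T cells, 1 was higher and 1 lower (median -0.04). Against no uptake, 5 of these 11 were higher and 1 lower after Treg uptake, and 4 were higher and 0 lower after Tconv uptake. Of all genes, 13.8% were called after Treg and 6.43% after Tconv uptake. Of 8 macrophage genes, 1 was higher and 2 lower after IL-10 and Treg than after Tconv uptake (median -0.05). With IFN-γ, 6 of them were higher and 1 lower after Treg than after Tconv uptake (median 0.25 against 0.04 for all genes). There 14.7% of all genes were called. Among B cell genes, 1 of 6 tested was higher after Treg than after Tconv uptake with IL-10 (median 0.20). In both tested neutrophil genes, all 3 tested platelet and megakaryocyte genes, both tested endothelial genes and the 1 tested dendritic cell gene there were 0 calls in this IL-10 comparison.

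Of the 24 tested partners of FOXP3, 8 were higher and 3 lower in IL-10 non-phagocytic macrophages than in M0, where 26.6% of all genes were called, led by Jak3 (1.32), Runx3 (1.12), Batf (0.80) and Nfatc2 (0.54), while Foxp3 was at 0.70 without passing the test.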
